A study of Mus musculus with 6 samples.

Results

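The genes described here are 38 genes of mitosis and of the passage from G2 into mitosis, read by symbol from a table of 24493 gene symbols: mitotic cyclins, kinases, checkpoint and degradation factors, and genes of the spindle, the kinetochore and cytokinesis. They were set between 2 genotypes of mouse cells that the labels call Treg, short for regulatory T cells, which hold immune responses in check. By the labels, all libraries were messenger RNA from naive CD4 T cells of the spleen that were cultured towards the Treg state. No treatment other than that culture is given in the labels. One genotype was Ifnar1-SA, with 3 libraries, and the other was wild type (WT), with 3 libraries. Ifnar1 is a subunit of the receptor for type I interferons. As the SA allele is described in the literature, alanine takes the place of a serine that marks the subunit for degradation, in the animal's own gene, and the labels add nothing to its name. The question was whether the mitotic programme differed between Ifnar1-SA and WT cells.

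Entry into mitosis is driven by Cdk1 bound to B-type cyclins, and the transcripts of these cyclins and of most mitotic factors accumulate late in the cell cycle. Their genes are repressed early in the cycle by the DREAM complex and activated later by the MuvB core together with B-MYB and FoxM1, which bind promoters through an element called CHR, often beside boxes for the factor NF-Y. In activated and culture-differentiated T cells these transcripts are used as a measure of how actively a population divides. In bulk samples a smaller share of dividing cells and less of this RNA per dividing cell cannot be told apart.

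Levels are in TPM, which counts a gene's transcripts, corrected for length, out of 1e+06 per library. Read numbers cannot be recovered from it, so the depth behind each value is unknown. Between 21925 and 22958 genes were above 0 in a library, and 0 pairs of libraries held identical values. Nothing in the labels ties the 3 libraries of a genotype to different animals or cultures, and p-values therefore reflect the spread between these samples alone, part of which may be technical. The SA change alters 1 residue and cannot be seen in TPM per gene, so the genotype labels could not be checked. The summed TPM of 7 T cell markers was 2073 to 2341 in Ifnar1-SA and 1949 to 2067 in WT. Of 5 Treg markers, Foxp3, the factor that defines Treg cells, was at 0.746, 1.82 and 0.759 TPM in Ifnar1-SA and at 0.697, 0.295 and 0.276 TPM in WT. Ikzf2 was at 0.792 to 1.26 TPM in Ifnar1-SA and 0.859 to 1.97 TPM in WT. Both were thus low in every library, and the level of Foxp3 went against the label Treg, which is kept as a name only. Il2ra was at 444, 444 and 422 TPM in Ifnar1-SA and at 428, 384 and 359 TPM in WT. With Ctla4 and Tnfrsf18, the 5 summed to 3585 to 4428 TPM in Ifnar1-SA and 3498 to 4168 TPM in WT. Markers of CD8 T and NK cells, B cells, myeloid cells, dendritic cells, red cells and platelets, and stroma summed to between 1.04 and 17.96 TPM per list in Ifnar1-SA and between 0.418 and 20.002 TPM in WT. WT 3 stood apart from the other libraries in its Y-linked transcripts: Eif2s3y was at 23.2, 16.3 and 10.9 TPM in Ifnar1-SA 1, 2 and 3, and at 17.0, 16.8 and 0 TPM in WT 1, 2 and 3. Ddx3y, also Y-linked, was at 4.17, 4.38 and 0.11 TPM in WT 1, 2 and 3, so WT 3 was not a repeat of the same RNA as WT 1 or WT 2. Group values below that WT 3 decides are also given without it, and the part of this difference in them was not tested.

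Promoter sequence was compared for the elements named above, CHR and NF-Y boxes. Whether they bear on the library values was not tested. RefSeq promoter windows of 300 bases (GRCm38.p6, 250 bases before and 50 bases after the start site) were listed for 32 of the 38 genes. Aurkb, Ccna2, Foxm1, Kif20a, Stmn1 and Tpx2 did not match an entry. The windows below show the 120 bases before the start of Cdk1, Plk1, Cdc20, Kif11 and Top2a and 119 bases of Ube2c, 5′ to 3′ on the strand of the gene. They were chosen after their letters were seen, as genes of different roles with elements before the start. Capitals mark CHR elements (TTTGAA, or TTCAAA on the other strand), the CHR variant TTTAAA, and NF-Y boxes (CCAAT, or ATTGG on the other strand).
Cdk1: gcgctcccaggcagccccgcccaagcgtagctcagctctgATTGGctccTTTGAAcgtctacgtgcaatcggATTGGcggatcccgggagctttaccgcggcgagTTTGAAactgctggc
Plk1: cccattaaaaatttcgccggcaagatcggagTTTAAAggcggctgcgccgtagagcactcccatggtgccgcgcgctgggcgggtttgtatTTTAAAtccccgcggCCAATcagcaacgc
Cdc20: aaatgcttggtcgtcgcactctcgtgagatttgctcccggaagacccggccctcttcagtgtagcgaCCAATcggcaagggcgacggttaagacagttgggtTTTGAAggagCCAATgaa
Ube2c: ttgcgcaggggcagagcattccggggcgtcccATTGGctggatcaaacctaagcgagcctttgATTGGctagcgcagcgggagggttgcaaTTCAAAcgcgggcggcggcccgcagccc
Kif11: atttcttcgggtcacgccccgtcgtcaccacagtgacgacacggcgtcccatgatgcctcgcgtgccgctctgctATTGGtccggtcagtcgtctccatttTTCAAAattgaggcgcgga
Top2a: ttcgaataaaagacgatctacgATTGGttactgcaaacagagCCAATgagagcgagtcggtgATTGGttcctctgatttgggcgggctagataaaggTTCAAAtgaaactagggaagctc
The windows lie at chr10:69352913-69353032 (minus strand) for Cdk1, chr7:122159315-122159434 (plus strand) for Plk1, chr4:118437344-118437463 (minus strand) for Cdc20, chr2:164769809-164769927 (plus strand) for Ube2c, chr19:37376262-37376381 (plus strand) for Kif11 and chr11:99024190-99024309 (minus strand) for Top2a. Counted from the GENCODE gene models of GRCm38, Plk1, Kif11 and Top2a had 0 bases of the window inside the gene, Cdc20 had 9, Cdk1 had 26 and Ube2c had 30. In Cdk1, counting back from the start, CHR elements began at positions −15 and −71 and NF-Y boxes at −48 and −80. Plk1 differed from the others in carrying TTTAAA and no TTTGAA before its start.

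The letters TTTGAA, on either strand, were present in the windows of 24 of the 32 genes (75.0%), against 1331 of the 8918 windows of all genes tested (14.9%) and 20.2% of all 27025 genes with a window. The variant TTTAAA was present in 9 of 32 (28.1%), against 10.9% of the genes tested, and either form in 27 of 32 (84.4%), against 23.0%. The NF-Y box CCAAT was present in 24 of 32 (75.0%), against 43.6%, and TTTGAA together with CCAAT in 21 of 32 (65.6%), against 6.38%. TTTGAA was also present in 36 of 63 further mitotic genes with a window (57.1%) and in 7 of 16 genes of transcriptional control (43.8%). Among 24 S-phase genes with a window, which peak earlier in the cycle, TTTGAA was present in 3 (12.5%) and CCAAT in 15 (62.5%). Bub1, Mad2l1, Nuf2, Nusap1 and Tacc3 held neither form of CHR in these windows. These shares are descriptions of letters, with no test and no statement about binding. The S-phase genes also shared the library order described further on, and a link between elements and that order was not tested.

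The 2 kinds of element sat at different places in the windows. Counting 1 start site per gene, 22 of 30 TTTGAA copies began within 50 bases of the start, with a median position of 3, and they were split into 14 before and 16 after the start. The windows end 50 bases after the start, so every copy after it falls within 50 bases. Of 58 CCAAT copies, 57 began before the start and 1 after it, with a median position of −71. In 20 genes a CCAAT lay upstream of a TTTGAA, with a median distance of 30 bases between their first letters, against 39.5 bases in 304 genes tested. A spacing of 25 to 45 bases, chosen after seeing the distances, was found in 11 of those 20 genes (55%), against 27.0% of the 304. Motifs overlapped at 2 places, a CHR with an NF-Y box in Cdca8 and 2 NF-Y boxes of opposite strands in Ube2c.

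**Figure D1:**
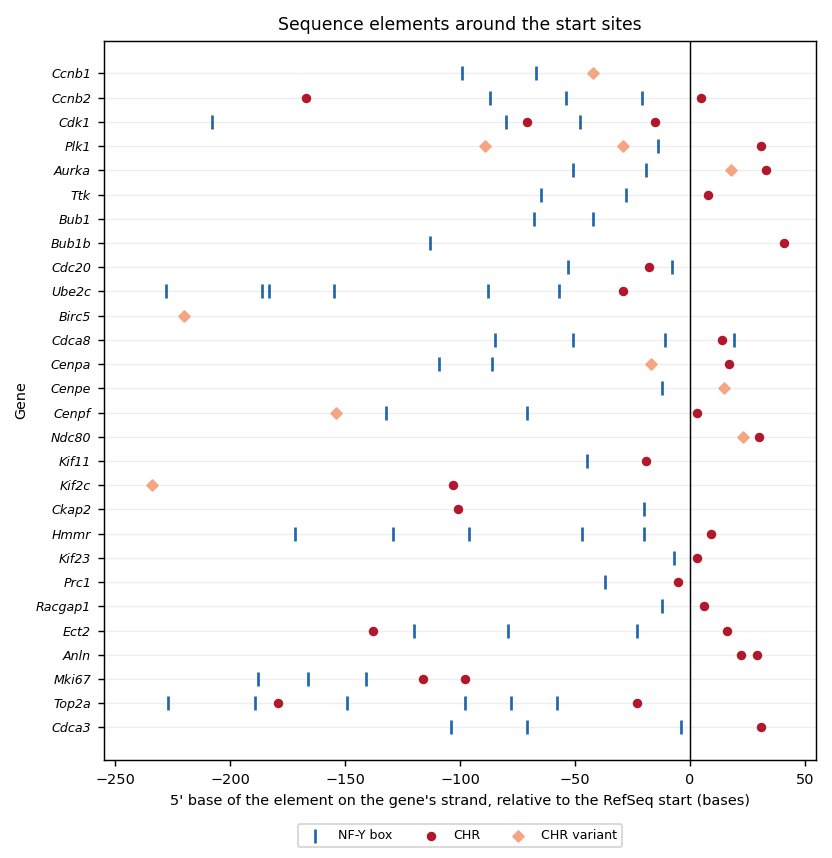
Positions of CHR elements (circles), the CHR variant (diamonds) and NF-Y boxes (bars) in the RefSeq windows of the 28 genes that held at least 1 of them, with the start site at the vertical line and distances in bases. CHR elements crowd around the start (median position 3), and NF-Y boxes lie upstream of it (median position −71).

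No member of the group passed the test between the genotypes. All 38 had a mean of at least 1 TPM and were among the 12141 genes tested. With limma on log2(TPM + 1) and Benjamini-Hochberg adjustment over all genes tested, 0 of 38 were called, against 7 of all genes (0.0577%), and the adjusted p was 0.9997 for each of the 38. At an unadjusted p under 0.05, 0 of 38 passed, against 379 of all 12141 genes tested. The libraries of Ifnar1-SA and WT overlapped in 38 of 38 genes, while 5.77% of all genes tested had genotypes that did not overlap. Mean log2 values were higher in Ifnar1-SA for 28 genes and lower for 10, with a median log2 difference of 0.11, against −0.06 over all genes tested. After median-of-ratios or quantile scaling of the libraries, the split was 35 higher and 3 lower, with medians of 0.17 and 0.16. The scaled difference between genotype means over the 38 genes was 0.16 and 0.15. It was 0.02 and 0.01 without WT 3, and 0.37 and 0.34 without WT 1.

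Leaving out single libraries moved the group to either side of 0. The median log2 difference was −0.09 without WT 3 (8 higher, 30 lower) and −0.02 without Ifnar1-SA 1 (14 higher, 24 lower). It was 0.27 without WT 1 (37 higher, 1 lower) and 0.22 without Ifnar1-SA 3 (36 higher, 2 lower), and 0.11 and 0.17 without WT 2 and without Ifnar1-SA 2. In each of these 6 fits, 0 of 38 genes were called. Ratios of mean TPM, Ifnar1-SA over WT, ran between 0.831 for Bub1 and 1.25 for Stmn1. In all 38 genes the highest over lowest library within Ifnar1-SA, and likewise within WT, exceeded the ratio between the genotypes. The 95% intervals of the log2 difference all held 0 and reached −0.83 for Bub1 and 1.13 for Cdc20. With 3 libraries per genotype, differences inside a gene's interval thus remain compatible with the data.

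**Figure D2:**
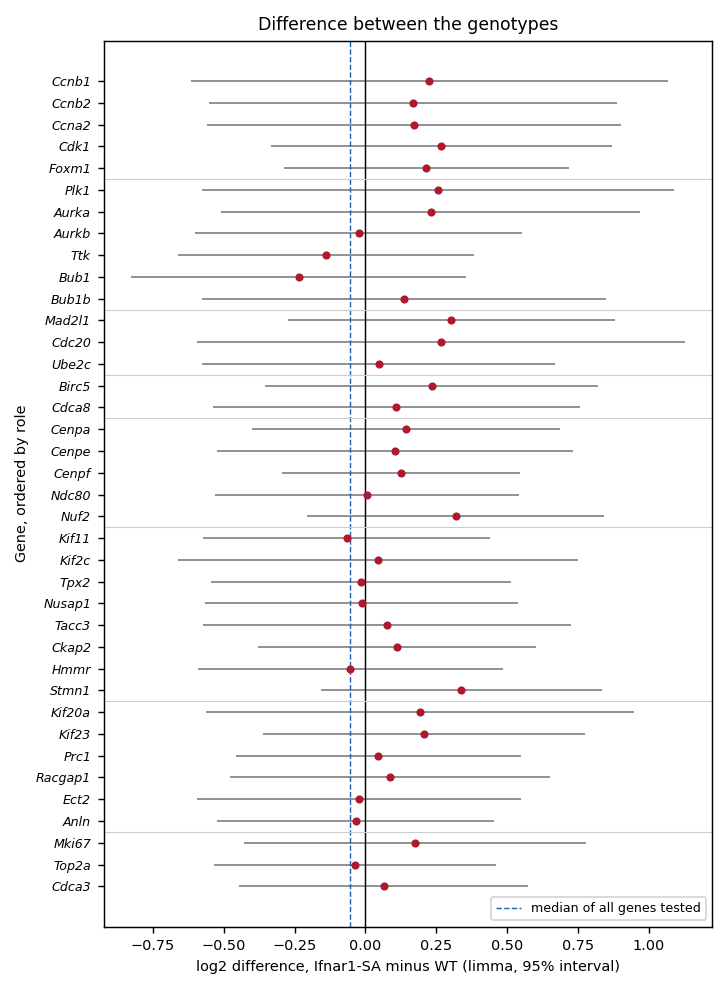
Log2 difference, Ifnar1-SA minus WT, of each of the 38 genes (points) with its 95% interval from limma (bars), ordered by role from top to bottom, with 3 libraries per genotype. Every interval crosses 0, the solid line, and the dashed line marks the median of all genes tested at −0.06.

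The larger contrast was between libraries of the same genotype. The mean log2(TPM + 1) over the 38 genes was 5.12, 4.74 and 4.61 in Ifnar1-SA 1, 2 and 3, and 5.11, 4.72 and 4.32 in WT 1, 2 and 3. Library 1 was thus the highest in each genotype. The WT libraries stepped down evenly, and WT 3 was the lowest of all. The genotype means were 4.82 ± 0.27 in Ifnar1-SA and 4.72 ± 0.39 in WT (SD, n = 3 each), a difference of 0.11 that is smaller than either SD on this scale. Summed over the 38 genes, mitotic transcripts made up 0.279%, 0.226% and 0.204% of Ifnar1-SA 1, 2 and 3, and 0.286%, 0.202% and 0.157% of WT 1, 2 and 3.

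Most of the genes shared this order. Ifnar1-SA 1 and WT 1 were each above the gene's own mean over 6 libraries in 38 of 38 genes, and Ifnar1-SA 3 and WT 3 in 0 of 38. The second libraries lay near the mean, Ifnar1-SA 2 above it in 12 genes and WT 2 in 15. Ifnar1-SA 1 and WT 1 were the 2 highest libraries in 31 of 38 genes, an order found in 18.3% of all genes tested. It was also found in 26 of 30 S-phase genes. After median-of-ratios and quantile scaling it held in 22 and 26 of the 38. Ifnar1-SA 1 was the highest Ifnar1-SA library in 37 of 38 genes, against 72.4% of all genes tested, and WT 1 the highest WT library in 32, against 32.2%. WT 3 was the lowest library in 34 of 38 genes, against 21.7% of all genes tested, and the lowest of the WT libraries in 38. Whether libraries of the same number are paired is not given in the labels. Over all genes, same-numbered libraries deviated together only weakly or in opposite directions, which cannot exclude a pairing.

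**Figure D3:**
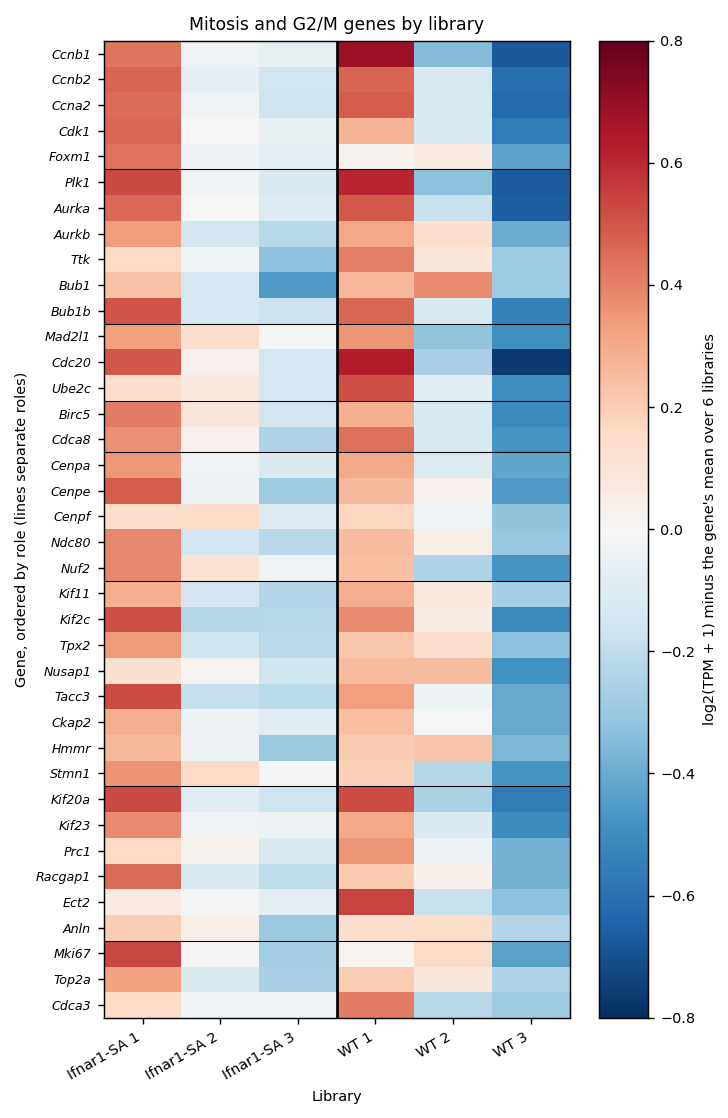
Each gene's log2(TPM + 1) minus its mean over the 6 libraries, as colour (red above, blue below), with Ifnar1-SA libraries left of WT libraries and genes ordered by role. Columns Ifnar1-SA 1 and WT 1 are red for all 38 genes and columns Ifnar1-SA 3 and WT 3 are blue for all 38, with WT 3 the deepest at a median of −0.44.

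Scaling changed which part of this order stood out. TPM is a share, and the median-of-ratios size factors of these libraries were 1.15, 0.921 and 0.894 in Ifnar1-SA and 1.01, 1.13 and 0.948 in WT. After that scaling the mean over the 38 genes was 4.93, 4.85 and 4.76 in Ifnar1-SA 1, 2 and 3, and 5.10, 4.56 and 4.40 in WT 1, 2 and 3. The gap between the highest and lowest library was then 0.17 in Ifnar1-SA and 0.70 in WT, against 0.52 in Ifnar1-SA and 0.78 in WT as deposited. Scaling thus took away most of the height of Ifnar1-SA 1 and little of the spread among the 3 WT libraries. The genotype means after scaling were 4.85 ± 0.086 in Ifnar1-SA and 4.68 ± 0.37 in WT (SD, n = 3 each), a difference of 0.16 that is above the SD of Ifnar1-SA and below that of WT. Without WT 3 this scaled difference was 0.02, and without WT 1 it was 0.37. WT libraries were more spread than Ifnar1-SA libraries in 29 of 38 genes as deposited and in 36 of 38 after scaling. That order rested on WT 3 and WT 1. Without WT 3 the gap in WT was 0.38 as deposited, below that of Ifnar1-SA, with WT more spread in 12 genes, and 0.54 after scaling, with WT more spread in 31. Without WT 1 it was 0.40 as deposited and 0.16 after scaling, below that of Ifnar1-SA on both scales, with WT more spread in 7 and 12 genes. WT 1 was the highest library in 15 genes as deposited and in 31 after scaling, and WT 3 the lowest in 34 and 31. Whether the spread itself differs between the genotypes was not tested.

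**Figure D4:**
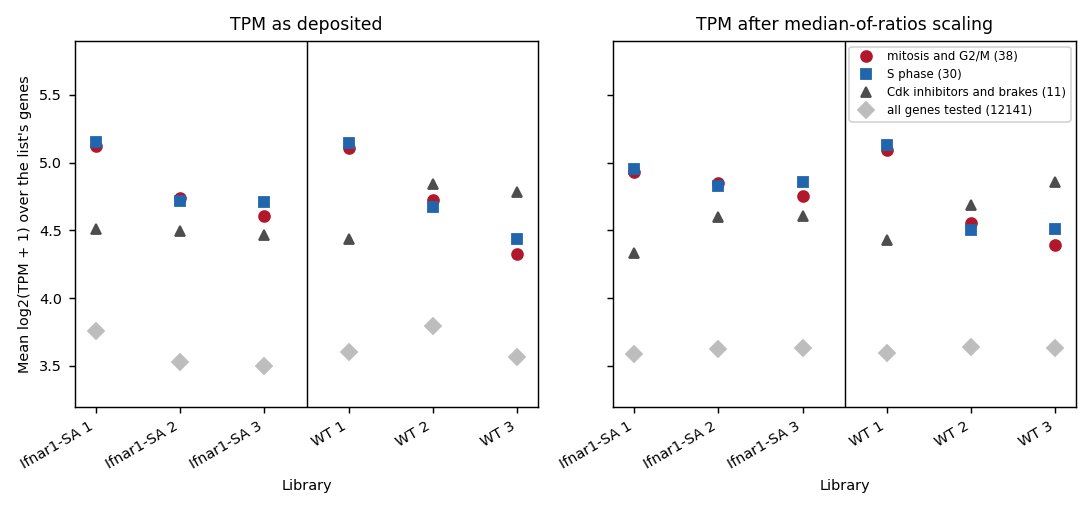
Mean log2(TPM + 1) per library for the 38 mitosis and G2/M genes, 30 S-phase genes, 11 Cdk inhibitors and brakes, and all 12141 genes tested, with Ifnar1-SA left of WT, as deposited (left panel) and after median-of-ratios scaling (right panel). The mitotic and S-phase points lie together in every library, and after scaling they spread over 0.17 and 0.13 in Ifnar1-SA and over 0.70 and 0.63 in WT.

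Cyclins and Cdk1 were among the genes with the widest range between libraries. Ccnb1, the cyclin that activates Cdk1 for mitotic entry (GRCm38 chromosome 13, 100778650 to 100786570, minus strand), measured 90.0, 65.4 and 64.0 TPM in Ifnar1-SA and 108, 52.2 and 41.5 TPM in WT. WT 1 was the highest library and WT 3 the lowest, so the WT values enclosed all those of Ifnar1-SA. Its mean was 73.1 ± 14.6 TPM in Ifnar1-SA and 67.2 ± 35.6 TPM in WT (SD, n = 3 each), with a log2 difference of 0.23 (95% interval −0.62 to 1.07). Cdk1, the kinase itself (chromosome 10, 69335146 to 69352938, minus strand), measured 75.2, 54.4 and 52.5 TPM in Ifnar1-SA and 66.1, 50.1 and 36.8 TPM in WT. Ifnar1-SA 1 was highest, WT 1 lay above the other Ifnar1-SA libraries, and WT 2 and WT 3 were lowest, with a log2 difference of 0.27 (95% interval −0.33 to 0.87). Ccnb2, a second B-type cyclin, and Ccna2, which acts in S phase and G2, ran between 41.1 and 87.4 TPM and between 30.7 and 67.2 TPM over the 6 libraries, with log2 differences of 0.17 each.

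Foxm1, a transcription factor that activates late cell cycle genes (chromosome 6, 128362967 to 128376146, plus strand), was far less abundant than the cyclins on the TPM scale. It was at 7.23, 4.93 and 4.79 TPM in Ifnar1-SA and at 5.22, 5.38 and 3.56 TPM in WT. In TPM as deposited, unlike the cyclins, it was not raised in WT 1, which lay beside WT 2. The size factors were 1.01 in WT 1 and 1.13 in WT 2, and the order of Foxm1 after scaling is not given here. The log2 difference was 0.22 (95% interval −0.29 to 0.72).

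Of the mitotic kinases, in TPM as deposited, Aurka and Plk1 followed the cyclins and Bub1 did not. Aurka, which acts at centrosomes and spindle poles (chromosome 2, 172356190 to 172370535, minus strand), measured 74.4, 53.9 and 50.3 TPM in Ifnar1-SA and 76.4, 47.8 and 33.8 TPM in WT. The first libraries of both genotypes were level and WT 3 was low, with a log2 difference of 0.23 (95% interval −0.51 to 0.97). Bub1, a spindle checkpoint kinase (chromosome 2, 127801122 to 127831865, minus strand), measured 8.90, 6.63 and 5.14 TPM in Ifnar1-SA and 9.07, 9.92 and 5.88 TPM in WT. As deposited, WT 2 was its highest library, and the order of its libraries after scaling is not given here. Bub1 had the lowest log2 difference of the 38, at −0.24 (95% interval −0.83 to 0.35). Plk1, which acts from mitotic entry to cytokinesis, ranged 2.5-fold between its lowest and highest library, Bub1b, another checkpoint component, 2.16-fold, Ttk, the kinase that starts checkpoint signalling, 1.74-fold, and Aurkb, the kinase of the chromosomal passenger complex, 1.67-fold. Their log2 differences were 0.26, 0.14, −0.14 and −0.02.

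The checkpoint holds back the anaphase-promoting complex until chromosomes are attached, and genes of both sides were measured. Cdc20, the activator of that complex (chromosome 4, 118432901 to 118437352, minus strand), measured 97.9, 70.9 and 62.8 TPM in Ifnar1-SA and 107, 57.5 and 40.2 TPM in WT. With a highest library 2.67 times its lowest, it had the widest range of the 38 genes, and its log2 difference was 0.27 (95% interval −0.60 to 1.13). Mad2l1, the checkpoint protein that binds Cdc20 (chromosome 6, 66535390 to 66547220, plus strand), measured 42.1, 36.7 and 33.0 TPM in Ifnar1-SA and 42.8, 26.6 and 23.4 TPM in WT. WT 2 and WT 3 lay below all Ifnar1-SA libraries and WT 1 above them, with a log2 difference of 0.30 (95% interval −0.27 to 0.88). Ube2c, the ubiquitin-conjugating enzyme of the complex, was at 445, 429.9 and 372 TPM in Ifnar1-SA and at 584, 383 and 288 TPM in WT, and both its highest and lowest libraries were WT.

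Partners of Aurkb in the chromosomal passenger complex followed the same order. Birc5, also called survivin (chromosome 11, 117849251 to 117855743, plus strand), measured 238, 190.2 and 161 TPM in Ifnar1-SA and 218, 164 and 125 TPM in WT. Cdca8, also called borealin (chromosome 4, 124918465 to 124939311, minus strand), measured 123, 97.5 and 80.4 TPM in Ifnar1-SA and 129, 86.8 and 68.2 TPM in WT. In both genes library 1 of each genotype was its highest and library 3 its lowest, and the genotypes interleaved, with log2 differences of 0.23 (95% interval −0.35 to 0.82) for Birc5 and 0.11 (95% interval −0.54 to 0.76) for Cdca8.

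Centromere and kinetochore genes ranged from 1.51-fold (Cenpf) to 2.11-fold (Cenpe) between their lowest and highest libraries. Nuf2, a subunit of the complex that attaches kinetochores to microtubules (chromosome 1, 169497934 to 169531464, minus strand), measured 19.0, 15.6 and 14.0 TPM in Ifnar1-SA and 17.1, 11.9 and 10.01 TPM in WT. WT 2 and WT 3 were below all Ifnar1-SA libraries while WT 1 was among them, with a log2 difference of 0.32 (95% interval −0.21 to 0.84). Ndc80, its partner in the same complex, had a log2 difference of 0.01 (95% interval −0.53 to 0.54), and the difference between these partners was not tested. Cenpf, a large kinetochore protein of G2 and mitosis (chromosome 1, 189640606 to 189688086, minus strand), measured 5.76, 5.80 and 4.72 TPM in Ifnar1-SA and 5.91, 4.99 and 3.9 TPM in WT. Ifnar1-SA 1, Ifnar1-SA 2 and WT 1 were level and WT 3 was lowest, with a log2 difference of 0.13 (95% interval −0.29 to 0.54). Cenpa, the histone H3 variant of centromeres, and Cenpe, a kinetochore motor, had log2 differences of 0.14 and 0.10.

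Spindle motors and microtubule-binding genes included the most abundant member. Stmn1, a microtubule-destabilizing protein that is abundant in dividing cells (chromosome 4, 134468320 to 134473843, plus strand), measured 639, 553 and 495 TPM in Ifnar1-SA and 568, 425 and 357 TPM in WT. WT 1 lay above Ifnar1-SA 2, and the other WT libraries lay below all Ifnar1-SA libraries. It had the highest log2 difference and the lowest p of the 38, at 0.34 with a standard error of 0.21 (95% interval −0.16 to 0.83, limma adjusted p = 0.9997). Ckap2, a spindle-associated protein (chromosome 8, 22168160 to 22185819, minus strand), measured 9.69, 7.48 and 7.21 TPM in Ifnar1-SA and 9.29, 7.69 and 5.61 TPM in WT. Its libraries interleaved, with a log2 difference of 0.11 (95% interval −0.38 to 0.60). The motors Kif11 and Kif2c, the spindle assembly factor Tpx2, and Nusap1, Tacc3 and Hmmr, which bind or stabilize spindle microtubules, had log2 differences between −0.07 for Kif11 and 0.08 for Tacc3. In this role 8 of 8 genes were lowest in WT 3, and 4 were higher and 4 lower in Ifnar1-SA by mean log2 value.

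Genes of the central spindle and cytokinesis act last, as the cells divide. Kif23, a motor of the centralspindlin complex (chromosome 9, 61915905 to 61946774, minus strand), measured 12.2, 8.98 and 8.87 TPM in Ifnar1-SA and 11.6, 8.43 and 6.16 TPM in WT. Kif20a, a motor of the central spindle, was at 17.0, 10.7 and 10.1 TPM in Ifnar1-SA and at 16.8, 9.45 and 7.44 TPM in WT. The first libraries of both genotypes were near each other and well above the rest, with log2 differences of 0.21 (95% interval −0.36 to 0.77) for Kif23 and 0.19 (95% interval −0.56 to 0.95) for Kif20a. Racgap1, the partner of Kif23, Prc1, which bundles microtubules of the central spindle, Ect2, which activates RhoA at the division plane, and Anln, a scaffold of the contractile ring, had log2 differences of 0.09, 0.04, −0.02 and −0.03. Ect2 was at 6.99 TPM in WT 1, and its 3 Ifnar1-SA libraries lay within 4.20 to 4.74 TPM. Anln was the least abundant member, at 1.42 to 2.42 TPM over the 6 libraries.

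Mki67, which encodes the proliferation antigen Ki-67 of mitotic chromosomes (chromosome 7, 135689784 to 135716361, minus strand), measured 11.3, 7.59 and 6.02 TPM in Ifnar1-SA and 7.66, 8.45 and 5.33 TPM in WT. In TPM as deposited, WT 2 was above WT 1, as for Foxm1 and Bub1, and Ifnar1-SA 1 stood alone at the top. The order of Mki67 after scaling is not given here. The log2 difference was 0.17 (95% interval −0.43 to 0.78). Cdca3, a trigger of mitotic entry that promotes loss of the kinase Wee1 (chromosome 6, 124829547 to 124833701, plus strand), measured 110.2, 97.5 and 97.6 TPM in Ifnar1-SA and 132, 85.1 and 81.4 TPM in WT. The WT values again enclosed those of Ifnar1-SA, with a log2 difference of 0.06 (95% interval −0.45 to 0.58). Top2a, the topoisomerase that untangles sister chromatids, had with Cenpf the narrowest range, 1.51-fold, and a log2 difference of −0.04.

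Other genes of the cell cycle, taken from lists rather than by how they moved, showed this order of the libraries to different degrees. Of 78 further mitotic genes tested, 0 were called in either direction, 46 had a higher and 32 a lower mean log2 value, and WT 3 was lowest in 57. The members of smallest p were Ska3, of a kinetochore complex, at 12.5, 11.2 and 8.97 TPM in Ifnar1-SA and 14.7, 13.5 and 10.9 TPM in WT, and Pttg1, the securin that guards sister chromatids, at 171, 125 and 165 TPM in Ifnar1-SA and 127, 140.1 and 125 TPM in WT. Of 30 S-phase genes, 0 were called, 26 were higher and 4 lower in mean log2 value with a median log2 difference of 0.11, and WT 3 was lowest in 25. For these 30 and the 78 further mitotic genes, the splits include WT 3 and are not given without it. The mean log2 level of the S-phase genes was 5.15, 4.72 and 4.71 in Ifnar1-SA 1, 2 and 3, and 5.14, 4.67 and 4.44 in WT 1, 2 and 3. Set against it, the 38 mitotic genes differed by −0.03, 0.02 and −0.10 in Ifnar1-SA and by −0.04, 0.05 and −0.12 in WT, so the ratio of the programmes moved by far less than either programme. Ung, a repair enzyme of replicating DNA, was at 3.04, 2.97 and 2.88 TPM in Ifnar1-SA and 2.66, 2.23 and 2.05 TPM in WT (limma adjusted p = 0.9997). It was the 1 gene of these 30 without overlap in TPM as deposited, against 5.77% of all genes tested. Overlap after scaling is not given here. Hells, a chromatin remodeler, was at 16.7, 15.2 and 13.2 TPM in Ifnar1-SA and 17.5, 17.8 and 15.7 TPM in WT.

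Regulators of these promoters and brakes on the cycle did not pass the test either. Of 19 tested genes of transcriptional control, 0 were called, with 8 higher and 11 lower, and WT 3 was lowest in 7. Mybl2, which encodes B-MYB, was at 24.3, 14.6 and 14.4 TPM in Ifnar1-SA and 22.0, 16.7 and 12.3 TPM in WT, the same order as the mitotic genes. Lin9, a MuvB subunit, was at 1.82, 2.23 and 2.19 TPM in Ifnar1-SA and 2.81, 2.56 and 2.05 TPM in WT, and its lowest library was Ifnar1-SA 1. Nfyb, a subunit of NF-Y, was at 61.1, 71.5 and 52.3 TPM in Ifnar1-SA and 82.3, 77.1 and 69.6 TPM in WT, and Rb1, the retinoblastoma repressor, was at 1.92, 2.06 and 1.80 TPM in Ifnar1-SA and 2.03, 3.5 and 2.44 TPM in WT. Of 7 tested G1 cyclins and kinases with their upstream genes, 0 were called, with 2 higher and 5 lower, and WT 3 was lowest in 1. Myc, an activator of growth, was at 192, 161 and 145 TPM in Ifnar1-SA and 208, 195 and 166 TPM in WT, and Cdk6, a G1 kinase, at 37.8, 33.6 and 29.8 TPM in Ifnar1-SA and 31.4, 43.8 and 40.7 TPM in WT.

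Among 11 tested Cdk inhibitors and antiproliferative genes, 0 were called, 3 were higher and 8 lower, with a median log2 difference of −0.22, and WT 3 was lowest in 1. Cdkn1a, the Cdk inhibitor p21 (chromosome 17, 29090976 to 29100727, plus strand), measured 769, 794 and 819 TPM in Ifnar1-SA and 856, 1137 and 1113 TPM in WT. The log2 difference was −0.37 (95% interval −0.75 to 0.0044, limma adjusted p = 0.9997). In TPM as deposited its genotypes did not overlap, which held for 1 of the 11 genes and for 5.77% of all genes tested. Overlap after scaling is not given here. Cdkn1b, the inhibitor p27, was at 1.88, 3.52 and 2.71 TPM in Ifnar1-SA and 2.95, 4.31 and 4.75 TPM in WT. Ccng2, an atypical cyclin that rises in arrested cells, was at 36.3, 31.0 and 29.97 TPM in Ifnar1-SA and 33.4, 63.0 and 50.8 TPM in WT. In these brakes, as deposited, WT 2 and WT 3 were the high libraries and WT 1 lay nearer to Ifnar1-SA. Over the list, the mean log2 level as deposited was 4.51, 4.49 and 4.47 in Ifnar1-SA 1, 2 and 3, and 4.44, 4.85 and 4.79 in WT 1, 2 and 3. After median-of-ratios scaling it was 4.33, 4.60 and 4.61 in Ifnar1-SA 1, 2 and 3, and 4.43, 4.69 and 4.85 in WT 1, 2 and 3. The low libraries were then Ifnar1-SA 1 and WT 1, so the order of the brakes depended on scaling.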

How the data were processed

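The deposited file was 1 table of TPM per gene from the authors, with 24493 symbols and 6 columns, each matching the title of 1 sample. Per the submitters' processing notes, Salmon and the mouse builds mm10 and GRCm38 were used. For the version of Salmon, its annotation and filters on reads, nothing is given in the sources used here. TPM gives no read numbers, so no counting interval was possible, and a library's TPM depends on what its most abundant genes take up.

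The test used log2(TPM + 1) of the 12141 genes that averaged 1 TPM or more over the 6 libraries, with limma 3.58.1 and an intensity trend (R 4.3.3), two-sided, Ifnar1-SA minus WT, Benjamini-Hochberg adjusted over all genes tested at 0.05, with no replicate block. Fold changes on this scale understate those of low genes. The members, the gene lists and the tests were chosen with earlier results of these data known. All 38 members are named, and library values are given for up to 2 genes of smallest p per role, for Mki67, Ccnb1, Cdk1 and Foxm1, and for 2 genes per other list plus Mybl2, Lin9, Cdkn1a and Cdkn1b. Other genes given by library, such as Ube2c, Foxp3 and Eif2s3y, were chosen after their values were seen. Levels of single genes and lists are in the order of library numbers 1, 2 and 3. Gene positions are from GENCODE M21 (GRCm38) and promoter sequences from RefSeq (GRCm38.p6). Motifs were searched on both strands. Alternatives were pseudocounts of 0.1 and 0.5, no filter or a minimum mean of 5 TPM, median-of-ratios and quantile scaling, TPM without 1412 ribosomal protein and small RNA genes, other variance models, a replicate block, and left-out libraries. Leaving out WT 1 with Ifnar1-SA 1, and the spread between libraries with each left out, were added after seeing the data. Python 3.11.15, pandas 2.3.3, numpy 2.4.6 and matplotlib 3.10.9 were used.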

Additional observations from a re-analysis of the deposited data

How the results depend on the processing

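The genes of the group that were tested, 36 with a mean of at least 5 TPM and 38 otherwise, gave 0 calls under every alternative run, with a lowest adjusted p of 0.446 (limma, without WT 1 and Ifnar1-SA 1, where 2 genes had an unadjusted p under 0.05). Without WT 1, 5 genes did so. Of all 12141 genes tested, 1348 did so without WT 1 and Ifnar1-SA 1, and 850 without WT 1. The median log2 difference of the group was −0.05 without WT 2 and Ifnar1-SA 1 (13 higher, 25 lower), and −0.09 to 0.27 when 1 library was left out. Calls over all genes, 7 as reported, were 15 and 14 with pseudocounts of 0.1 and 0.5, 1 with a mean of at least 5 TPM, 0 without ribosomal protein and small RNA genes (limma, 421 at an unadjusted p under 0.05), 12 with robust empirical Bayes, 12 with array weights, 20 without WT 2 and Ifnar1-SA 1, 44 without WT 1 and Ifnar1-SA 1, and 14 to 28 when 1 library was left out. The cause was not tested. With a replicate block they were 0 (limma, 399 at an unadjusted p under 0.05), and the block changed no call of the 38 genes. Same-numbered libraries deviated together only weakly or in opposite directions (r across genes −0.11, −0.11 and 0.15 for numbers 1, 2 and 3). The highest r between libraries of the 2 genotypes was 0.25, for Ifnar1-SA 1 with WT 2. These values cannot exclude a pairing by number. The main fit took no pairing, since the labels give none. Leaving out 1 library turned the sign of single genes, whose log2 differences then ran between −0.0429 and 0.533 for Aurka, −0.0510 and 0.646 for Cdc20, −0.0999 and 0.356 for Cdca8, −0.00564 and 0.242 for Cenpf, −0.0609 and 0.259 for Ckap2, −0.0396 and 0.50 for Kif20a, −0.0484 and 0.358 for Mki67, −0.0607 and 0.285 for Cdca3, and −0.0553 and 0.623 for Ccnb1. The sign held but the size moved by over 1.5 times for Cdk1 (0.0566 to 0.472), Birc5 (0.0373 to 0.434), Kif23 (0.00497 to 0.412), Mad2l1 (0.133 to 0.554), Nuf2 (0.161 to 0.518) and Stmn1 (0.186 to 0.520), each lowest without WT 3 and highest without WT 1, for Foxm1 (0.0522 without Ifnar1-SA 1 to 0.305 without Ifnar1-SA 3) and for Bub1 (−0.439 without WT 3 to −0.0684 without Ifnar1-SA 3). Without WT 2 and Ifnar1-SA 1, 4 of the first genes turned: −0.0849 for Cdca8, −0.104 for Kif20a, −0.0874 for Cdca3 and −0.0485 for Ccnb1. With 3 libraries per genotype and no read depth, differences inside the printed intervals remain compatible with the data.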

Other observations

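Some mitotic genes outside the 38 went against the order of the libraries, chosen here after their values were seen. Cks2, a Cdk1-binding subunit, was at 208, 360 and 319 TPM in Ifnar1-SA and 399, 189 and 291 TPM in WT. Cenpw, a centromere protein, was at 17.6, 32.3 and 27.7 TPM in Ifnar1-SA and 38.8, 14.8 and 22.9 TPM in WT. Sgo2a, a protector of centromeric cohesion, was at 3.65, 7.33 and 6.87 TPM in Ifnar1-SA and 8.13, 4.46 and 6.08 TPM in WT. In these 3 genes Ifnar1-SA 1 and WT 2 were the low libraries, although Ifnar1-SA 1 was among the high libraries for the 38 genes.

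Among the brakes, also chosen after their values were seen, Btg1, an antiproliferative gene of resting lymphocytes, was at 47.0, 38.6 and 43.1 TPM in Ifnar1-SA and 35.8, 89.2 and 73.4 TPM in WT. Trp53inp1, a stress-response gene under p53, was at 3.83, 3.19 and 3.67 TPM in Ifnar1-SA and 2.96, 8.25 and 6.23 TPM in WT. WT 1 was the lowest library for both genes, and WT 2 the highest.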
